A study of Mus musculus with 12 samples.

Results

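The MHC class II genes described here were 9 of the 54532 genes in a table of RNA-seq counts from whole kidney: H2-Aa, H2-Ab1 and H2-Eb1, which encode the chains of the surface molecules, H2-DMa, H2-DMb1, H2-Oa and H2-Ob, which encode the peptide exchange molecules, Cd74, which encodes the invariant chain, and Ciita, the class II transactivator. They were taken by gene name. The family was proposed for study with the effect of the Pkd2 deletion in cystic kidneys already known, and H2-Ab1 was selected from the genes with the smallest p-values of that contrast, so the values of that contrast are given as a description only. The kidneys came from 12 mice of the C57BL/6 strain (C57BL/6 J in the study's methods), 18 days old, in 4 groups of 3. The noncystic groups were Pkd1RC/+ mice (a missense RC allele and a floxed Pkd1 allele, without Cre) with either Pkd2+/+ or Pkd2Δ17/Δ17. The cystic groups were Pkd1RC/- mice, in which the Ksp-Cre transgene, active in kidney tubule epithelium, removes the floxed allele and leaves the RC allele, again with either Pkd2+/+ or Pkd2Δ17/Δ17. Pkd2Δ17/Δ17 mice lack the miR-17 motif of the Pkd2 3′-UTR on both alleles. All 4 groups therefore carried the RC allele, no group had 2 wild-type Pkd1 alleles, and the loss of Pkd1 was driven in tubule epithelium.

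MHC class II molecules are αβ heterodimers that present peptides from the endocytic pathway to CD4+ T cells. In the kidney they are known mainly from dendritic cells, macrophages and B cells, and tubule epithelium can acquire them in inflammation. The invariant chain guides newly made heterodimers to the endosome, where cathepsins degrade it. H2-DM then exchanges its remnant for antigenic peptides, and H2-O restrains H2-DM, chiefly in B cells. The transactivator Ciita binds no DNA itself and is recruited to class II promoters by factors bound at the X box (the RFX complex and Creb1) and at the Y box (NF-Y). Interferon-γ induces Ciita through its receptor and the kinases Jak1 and Jak2. Mice of the C57BL/6 strain carry a nonfunctional H2-Ea and so express no E molecule at the surface, although H2-Eb1 is transcribed.

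The libraries held between 18800307 and 24453033 counts. The normalisation factors, which scale the libraries for composition (TMM), were 0.933 to 0.972 in noncystic and 1.04 to 1.08 in cystic kidneys. Pkd2 was measured at 194 to 219 CPM (counts scaled to a common library size) in noncystic Pkd2+/+, 271 to 286 in noncystic Pkd2Δ17/Δ17, 213 to 233 in cystic Pkd2+/+ and 307 to 337 in cystic Pkd2Δ17/Δ17 kidneys, higher in each mouse with the deletion than in each mouse without it. Kidney epithelium markers were abundant in all mice, with a summed level of 4400 to 11400 CPM. All 9 class II genes passed the filter on low values (mean log2CPM not under -3) and were tested. Because the RNA came from whole kidney, a lower level of a gene from fewer cells that express it and one from less RNA per cell cannot be told apart.

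The X and Y boxes through which Ciita acts were read from the promoter sequences, since class II genes are known to be regulated through them. RefSeq promoters of the build GRCm38.p6, from 250 bases before to 50 after the annotated start, matched 6 of the 9 members (H2-Aa, H2-Eb1, H2-DMa, H2-DMb1, H2-Oa, H2-Ob) and the neighbouring class II genes H2-DMb2 and H2-Eb2. H2-Ab1, Cd74 and Ciita had no entry. The motifs searched on both strands were AACNNATG for the core of the X box and TGATTGG for the Y box. The Y box letters were found in 7 of these 8 genes, and in 7.82% of all 32851 promoters. The X core was found in 5 of the 8 and in 8.86% of all promoters. An X core followed on the same strand by a Y box 15 to 45 bases on, counted from start to start, was found in H2-Eb1 (28 bases), H2-DMb1 (29), H2-Ob (26), H2-DMb2 (29) and H2-Eb2 (28), and in 18 (0.0548%) of all promoters. The letters and their spacing were set after these class II promoters were read. The shares of all promoters therefore give no test of enrichment in class II genes. The X box and Y box windows of 30 bases, 5′ to 3′ on the strand of the gene, are shown with the motif in capitals. The genes shown differed in whether they passed the test of cystic against noncystic Pkd2+/+ kidneys.
H2-Eb1, X box, chr17:34305767-34305796: ctctaactagcAACTGATGatgctggactc
H2-Eb1, Y box, chr17:34305795-34305824: tcctttgatgcTGATTGGctcccagcactg
H2-DMb1, X box, chr17:34153088-34153117: gtttacctagtAACTGATGatgctaggctg
H2-DMb1, Y box, chr17:34153117-34153146: gattcactcagTGATTGGtctgacctgcct
H2-DMb2, X box, chr17:34145117-34145146: gtttacctattAACCGATGatgctaggcta
H2-DMb2, Y box, chr17:34145146-34145175: aagtcacttagTGATTGGactgacttaact
H2-Ob, X box, chr17:34238809-34238838: ttctgcctagcAACAAATGatgcaaagtct
H2-Ob, Y box, chr17:34238835-34238864: gtcttcgctctTGATTGGttaacagtgtga
H2-Aa, Y box, chr17:34287855-34287884: agagaattttcTGATTGGttctggcgagtt
The genes are on the forward strand, except H2-Aa on the reverse strand. The windows of H2-Aa and H2-Oa held the Y box letters without the X core, and H2-DMa held neither. A match is a description of letters, and factor binding was not measured.

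The α chain gene H2-Aa was measured at 31.6, 32.2 and 30.2 CPM in noncystic Pkd2+/+ mice 19, 20 and 21. In noncystic Pkd2Δ17/Δ17 mice 22, 23 and 24 its level was 31.6, 30 and 24.1 CPM. In cystic Pkd2+/+ mice 25, 26 and 27 it was 51.3, 66.9 and 74.8 CPM, and in cystic Pkd2Δ17/Δ17 mice 28, 29 and 30 it was 24.8, 21.2 and 37.7 CPM. All 3 cystic Pkd2+/+ mice lay above all 9 other mice, whose groups overlapped each other. The β chain gene H2-Ab1 was at 46.0, 43.9 and 51.3 CPM in noncystic Pkd2+/+ and at 47.7, 47.3 and 46.0 CPM in noncystic Pkd2Δ17/Δ17 kidneys. It reached 97.2, 126 and 121 CPM in cystic Pkd2+/+ kidneys and 37.4, 31.6 and 55.6 CPM in cystic Pkd2Δ17/Δ17 kidneys. The cystic Pkd2+/+ mice again stood apart from all others. H2-Eb1, the β chain of the E molecule, was at 40.7, 44.2 and 42.4 CPM in noncystic Pkd2+/+ and 45, 40.5 and 35.9 CPM in noncystic Pkd2Δ17/Δ17 kidneys. Its levels were 67.8, 94.5 and 113 CPM in cystic Pkd2+/+ and 32.9, 30 and 49.4 CPM in cystic Pkd2Δ17/Δ17 kidneys. For the 3 chain genes, mouse 25 was the lowest of the cystic Pkd2+/+ mice, and mouse 29 the lowest and mouse 30 the highest of the cystic Pkd2Δ17/Δ17 mice.

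Cd74, the most abundant member, was at 57.5, 54.2 and 60.8 CPM in noncystic Pkd2+/+ and 63.2, 59.5 and 49.8 CPM in noncystic Pkd2Δ17/Δ17 kidneys. It was at 116, 156 and 182 CPM in cystic Pkd2+/+ and 54.8, 44.2 and 80.4 CPM in cystic Pkd2Δ17/Δ17 kidneys. The order of the mice within the cystic groups was that of H2-Aa. Ciita was at 1.97, 1.88 and 1.98 CPM in noncystic Pkd2+/+ and 1.80, 2.73 and 2.81 CPM in noncystic Pkd2Δ17/Δ17 kidneys, on 33 to 51 reads per mouse. It was at 4.34, 7.93 and 5.37 CPM in cystic Pkd2+/+ kidneys, on 112 to 162 reads, and at 1.97, 1.47 and 2.98 CPM in cystic Pkd2Δ17/Δ17 kidneys. The lowest cystic Pkd2+/+ mouse was above the highest of the 9 other mice.

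The 2 genes of the H2-DM heterodimer differed in pattern. H2-DMa was at 8.36, 8.55 and 10.4 CPM in noncystic Pkd2+/+, 8.45, 7.53 and 8.42 CPM in noncystic Pkd2Δ17/Δ17, 15.9, 17.7 and 14.9 CPM in cystic Pkd2+/+ and 8.51, 8.17 and 8.75 CPM in cystic Pkd2Δ17/Δ17 kidneys, so that only the cystic Pkd2+/+ mice stood above the rest. H2-DMb1 was at 27.1, 25.6 and 27.7 CPM in noncystic Pkd2+/+, 30, 22.4 and 25.2 CPM in noncystic Pkd2Δ17/Δ17, 28.1, 27.3 and 28.8 CPM in cystic Pkd2+/+ and 21.8, 19.6 and 17.5 CPM in cystic Pkd2Δ17/Δ17 kidneys. For H2-DMb1 the first 3 groups overlapped and the cystic Pkd2Δ17/Δ17 mice lay below all others. H2-Oa was close to absent, with 1 to 7 reads per mouse (0.0387 to 0.330 CPM), and H2-Ob had 10 to 36 reads per mouse (0.471 to 1.96 CPM). At these depths the 4 groups of H2-Oa overlapped. H2-Ob was at 0.684 to 0.779 CPM in noncystic Pkd2+/+ and 0.818 to 1.96 CPM in noncystic Pkd2Δ17/Δ17 mice, which did not overlap, and at 0.471 to 0.979 and 0.587 to 0.914 CPM in the cystic groups.

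**Figure D1:**
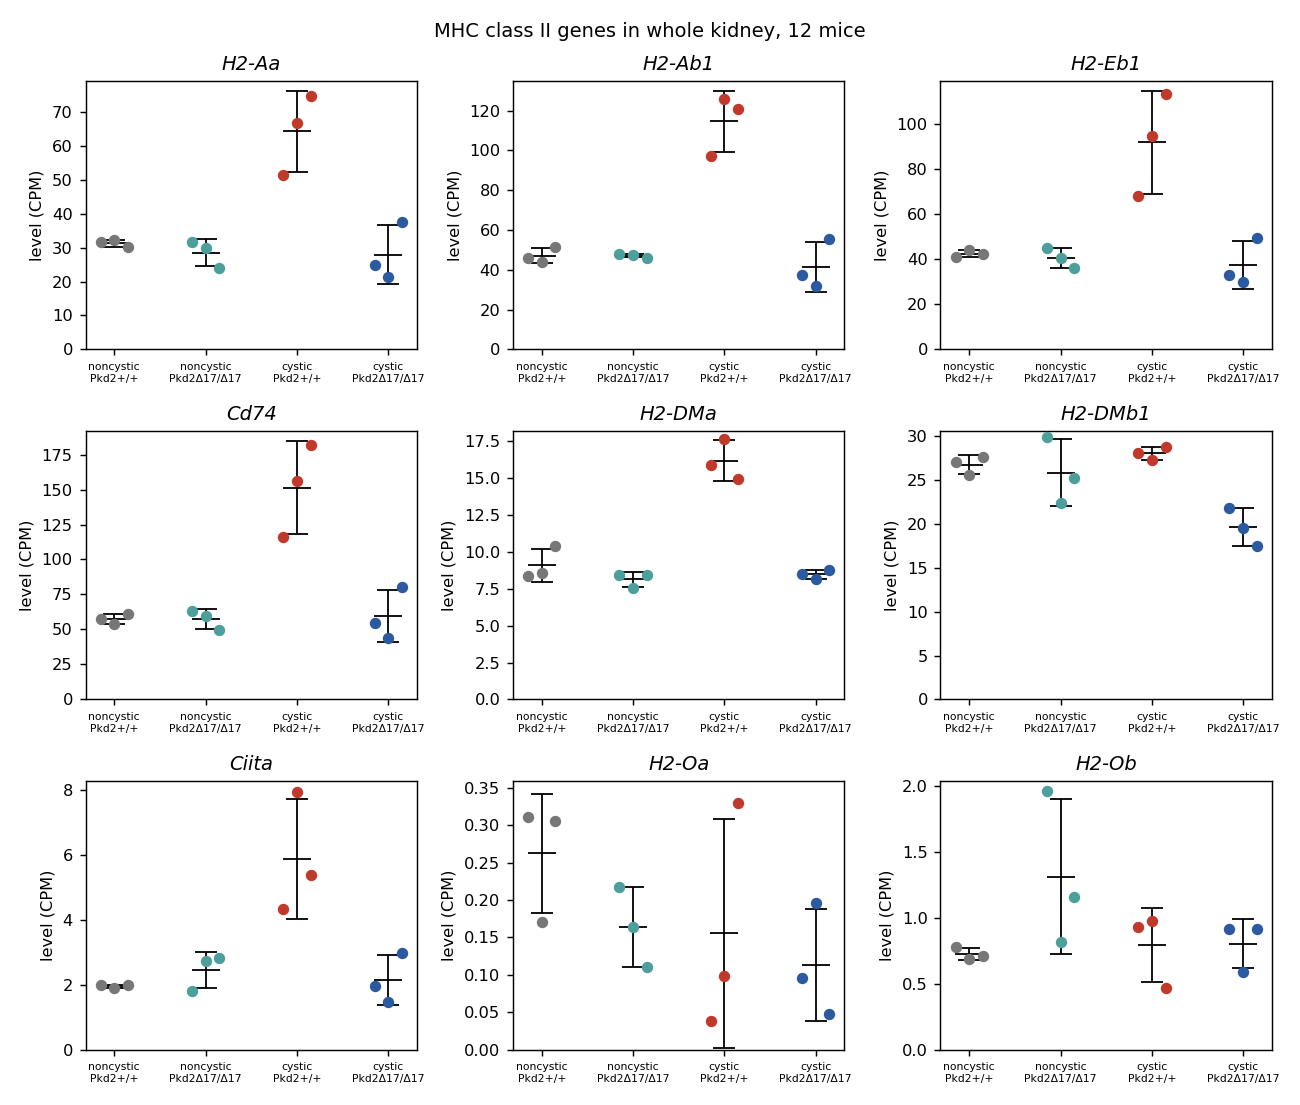
Level in CPM (linear axis from 0) of each of the 9 MHC class II genes in each mouse, by group, 3 mice per group; points are mice and black bars are the mean and SD. In 6 panels (H2-Aa, H2-Ab1, H2-Eb1, Cd74, H2-DMa, Ciita) the 3 cystic Pkd2+/+ mice lie above all other mice, in the H2-DMb1 panel the 3 cystic Pkd2Δ17/Δ17 mice lie below them, and H2-Oa and H2-Ob are near 0.

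The first comparison was cystic against noncystic kidneys with Pkd2+/+. In it 6 of the 9 class II genes rose and 0 fell (edgeR's quasi-likelihood test, Benjamini-Hochberg adjusted p under 0.05), against 16.9% of all 24642 tested genes that rose. The same 6 had no overlap between the groups, against 22% of all genes in that direction. The median log2 fold change was 1.04 over the members and 0.02 over all genes. This comparison shares the cystic Pkd2+/+ mice with the contrast from which the family was chosen, so it is not independent of that choice. Ciita rose 3-fold (log2 fold change 1.59, SE 0.29, adjusted p = 0.000376) and Cd74 2.63-fold (1.39, SE 0.18, adjusted p = 1.44e-05). The chain genes rose by similar amounts, H2-Ab1 by 2.43-fold (1.28, SE 0.15, adjusted p = 6.18e-06), H2-Eb1 by 2.16-fold (1.11, SE 0.18, adjusted p = 0.000106) and H2-Aa by 2.05-fold (1.04, SE 0.17, adjusted p = 0.000185). H2-DMa rose 1.78-fold (0.83, SE 0.13, adjusted p = 0.000103). H2-DMb1 did not pass the test, with a log2 fold change of 0.07 and a 95% interval from -0.17 to 0.30 (adjusted p = 0.708), which lies below the interval of H2-DMa (0.55 to 1.10). Neither H2-Ob (0.13, interval -0.73 to 0.99, adjusted p = 0.850) nor H2-Oa (-0.77, interval -2.39 to 0.84, adjusted p = 0.501) passed the test. Their wide intervals overlapped those of chain genes such as H2-Aa (0.67 to 1.41), so a response different from that of the chain genes was not shown. Together the 9 genes held 0.0197 to 0.0212% of the reads in noncystic and 0.0403 to 0.0572% in cystic Pkd2+/+ kidneys.

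The second comparison was Pkd2Δ17/Δ17 against Pkd2+/+ in noncystic kidneys, which shares no mouse with the contrast that chose the family. Here 0 of 9 members passed the test, against 0.00406% of all genes (1 of 24642). At an unadjusted p under 0.05 edgeR gave 1 of the 9, H2-Ob (log2 fold change 0.85, SE 0.40, adjusted p = 0.771), against 6.31% of all genes (1555 of 24642). It was also the 1 member whose groups did not overlap with the higher values in the deletion, against 5.69% of all genes. After adjustment limma-trend and DESeq2 also called 0 members. For the abundant members the intervals were narrow. H2-Ab1 had a log2 fold change of -0.00 with an interval from -0.33 to 0.32, Cd74 of -0.00 with an interval from -0.38 to 0.38, and H2-Aa of -0.13 with an interval from -0.51 to 0.24. The increases measured for these 3 genes in cystic Pkd2+/+ kidneys lie outside these intervals. Ciita had the widest interval among the members above 1 CPM (0.33, interval -0.31 to 0.96).

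The third comparison was cystic against noncystic kidneys with Pkd2Δ17/Δ17, which shares the cystic Pkd2Δ17/Δ17 mice with the contrast that chose the family. In it 0 of 9 members rose and 1 fell, against 23% of all genes called in either direction. H2-DMb1 fell to 0.760 of its noncystic level (log2 fold change -0.40, SE 0.11, adjusted p = 0.0162), with no overlap between the groups, against 17.7% of all genes in that direction. That call was lost with library totals in place of TMM factors (-0.24, adjusted p = 0.112), with limma-trend (-0.24, adjusted p = 0.108), without mouse 22 (-0.29, adjusted p = 0.0897) and without mouse 30 (-0.32, adjusted p = 0.0903). Without mouse 30, H2-Ab1 was called lower in its place (-0.45, adjusted p = 0.0130). For the genes that rose in cystic Pkd2+/+ kidneys the differences were small, with the log2 fold change at -0.03 for H2-Aa (interval -0.41 to 0.34), -0.18 for H2-Ab1 (-0.50 to 0.15), -0.11 for H2-Eb1 (-0.49 to 0.26), 0.06 for H2-DMa (-0.22 to 0.34), 0.06 for Cd74 (-0.32 to 0.44) and -0.19 for Ciita (-0.82 to 0.44). The misses do not show that the groups were alike. Each upper bound was below the increase measured in the Pkd2+/+ mice. That difference between the comparisons contains the contrast that chose the family, and it was not tested.

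The fourth contrast, Pkd2Δ17/Δ17 against Pkd2+/+ in cystic kidneys, chose the family, and its values are a description without a test. Past the threshold and lower were 7 of 9 members, beside 1.04% of all genes. The same 7 had no overlap between the groups, beside 10.2% of all genes in that direction. The level of H2-Ab1 was 2.76-fold lower with the deletion, that of Ciita 2.73-fold, Cd74 2.53-fold, H2-Eb1 2.45-fold, H2-Aa 2.30-fold, H2-DMa 1.91-fold and H2-DMb1 1.43-fold. H2-DMb1, just inside the threshold, had a log2 fold change of -0.52 (interval -0.75 to -0.28), and H2-Oa and H2-Ob, outside it, had -0.41 (-2.17 to 1.36) and 0.02 (-0.83 to 0.86). The summed level of the 9 genes was 381 to 541 CPM in cystic Pkd2+/+ and 157 to 253 CPM in cystic Pkd2Δ17/Δ17 kidneys, beside 211 to 226 and 194 to 230 CPM in the noncystic groups. The labels give no sex, and mice were split by Xist, an RNA of the inactive X chromosome, which was at 431 to 811 CPM in 6 mice and 5.47 to 7.74 CPM in the other 6. Among the mice with high Xist the summed level was 214 CPM in noncystic Pkd2+/+ (1 mouse), 381 and 497 CPM in cystic Pkd2+/+ and 183 CPM in cystic Pkd2Δ17/Δ17 kidneys (1 mouse), with 211 and 230 CPM in noncystic Pkd2Δ17/Δ17. Among those with low Xist it was 211 and 226 CPM, 541 CPM (1 mouse) and 157 and 253 CPM in the same groups, with 194 CPM in noncystic Pkd2Δ17/Δ17 (1 mouse). The cystic Pkd2+/+ kidneys were the highest in both classes. Each class held only 1 or 2 mice per group, and the family was chosen from the contrast of these cystic mice. The split is therefore no test of an effect of sex.

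**Figure D2:**
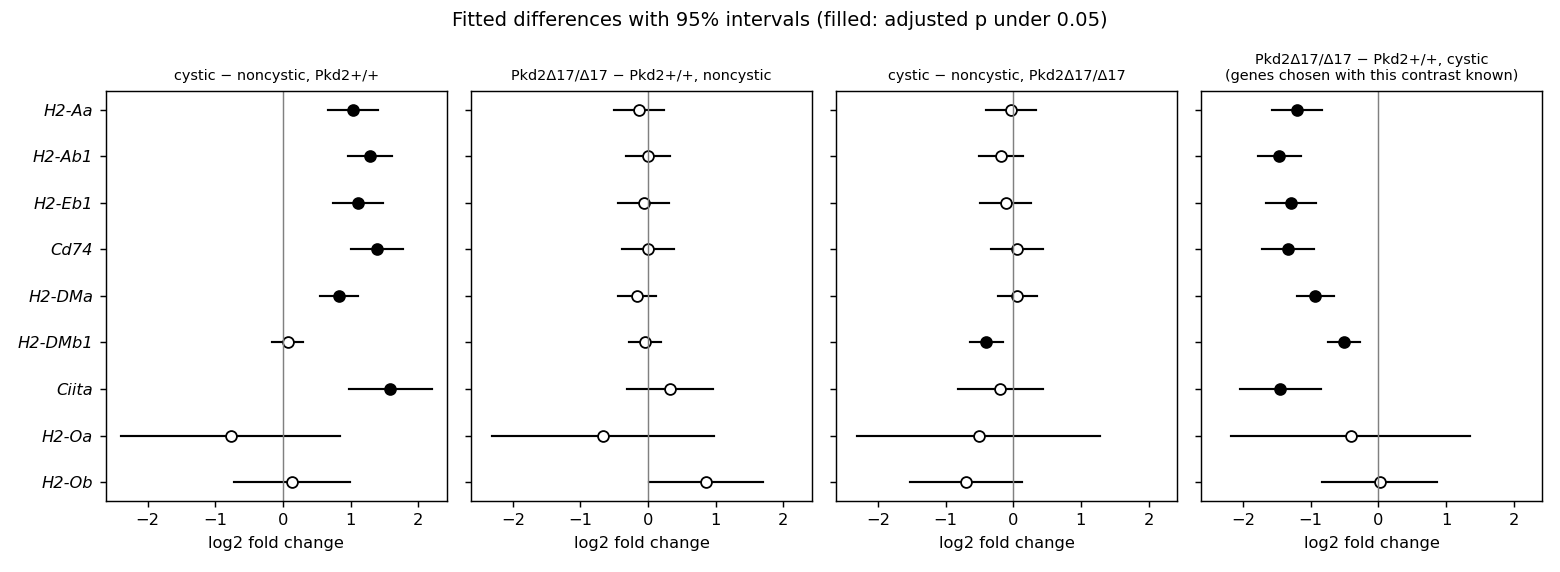
Fitted log2 fold change (x axis) of the 9 MHC class II genes in 4 contrasts, with 95% intervals; filled points are past an adjusted p of 0.05 over all genes tested. In the first panel 6 filled points lie above 0, in the second 0 points are filled, in the third H2-DMb1 alone is filled (-0.40), and in the fourth, whose values are a description, 7 filled points lie below 0.

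Compared per length (CPM per kilobase of annotated exon), the order of the levels in noncystic Pkd2+/+ kidneys was Cd74 at 34.2 ± 1.97 (SD, n = 3), H2-Eb1 at 21.8 ± 0.897, H2-Ab1 at 18.3 ± 1.49, H2-DMb1 at 15.9 ± 0.631 and H2-Aa at 8.25 ± 0.272. H2-DMa followed at 2.64 ± 0.323, then Ciita at 0.204 ± 0.00588, H2-Oa at 0.187 ± 0.0564 and H2-Ob at 0.135 ± 0.00903. The neighbours Ciita and H2-Oa did not differ beyond their spread, nor did H2-Oa and H2-Ob. The per-length makeup of the 4 abundant genes varied less between the groups than their sum. Cd74 took 41.4 ± 1.18, 42.3 ± 1.11, 45.2 ± 1.12 and 45.3 ± 1.05% in noncystic Pkd2+/+, noncystic Pkd2Δ17/Δ17, cystic Pkd2+/+ and cystic Pkd2Δ17/Δ17 kidneys. In the same order H2-Eb1 took 26.4, 25.7, 23.6 and 24.7%, H2-Ab1 22.2, 22.7, 22.7 and 20.6% and H2-Aa 9.99, 9.27, 8.54 and 9.36%. The chain genes and Cd74 thus varied in near proportion. H2-DMb1 did not. The log2 ratio of its per-length level to the mean of the 3 chain genes was 0.10 ± 0.06 and 0.11 ± 0.20 in the noncystic groups, -0.96 ± 0.27 in cystic Pkd2+/+ and -0.14 ± 0.54 in cystic Pkd2Δ17/Δ17 kidneys. For H2-DMa the ratio was -2.50 ± 0.15, -2.59 ± 0.18, -2.80 ± 0.31 and -2.38 ± 0.36, which overlapped between groups.

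In GRCm38 the 7 H2 members lie on chromosome 17, in the order H2-Oa (ENSMUSG00000024334, 34092340 to 34095234), H2-DMa (ENSMUSG00000037649, 34119541 to 34139101), H2-DMb1 (ENSMUSG00000079547, 34153072 to 34160230), H2-Ob (ENSMUSG00000041538, 34238903 to 34254414), H2-Ab1 (ENSMUSG00000073421, 34257689 to 34269419), H2-Aa (ENSMUSG00000036594, 34282744 to 34287823) and H2-Eb1 (ENSMUSG00000060586, 34305867 to 34316674). Ciita (ENSMUSG00000022504) lies on chromosome 16 from 10480059 to 10528418, and Cd74 (ENSMUSG00000024610) on another chromosome. H2-DMb1 and H2-Ob, which did not pass the test in cystic Pkd2+/+ kidneys, lie between H2-DMa and H2-Ab1, which did. Some members share sequence with other genes, which can affect their counts. Of the distinct 50-base windows of annotated transcripts, 22.7% of H2-DMb1 were shared with its neighbour H2-DMb2, 15.5% of H2-Oa with the overlapping BC051537, 8.43% of H2-DMa with Brd2 on the other strand and 1.46% of Ciita with Dexi. The strand setting of the counting is not given in the sources used here, so the values of H2-Oa, H2-DMa and Ciita, which overlap a gene on the other strand, are less certain, as is H2-DMb1 through the sequence it shares. H2-Ab1, H2-Eb1, H2-Ob and Cd74 shared no window, and H2-Aa shared 0.514%.

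The lists of related genes were chosen with earlier results of these data known. Their counts stand beside those of all 24642 tested genes. In cystic against noncystic Pkd2+/+ kidneys 7665 genes were called in either direction, and 16.9% of all genes rose. With Pkd2Δ17/Δ17, 23% were called in either direction. The share of all genes that fell with Pkd2+/+ is not given here, nor are shares by direction with Pkd2Δ17/Δ17. The 16.9% therefore applies only to counts of genes that rose with Pkd2+/+. The 23% applies only to the sum of the higher and lower counts of a list with Pkd2Δ17/Δ17. A list count near the share that applies to it is not a result about the list. Of the 3 other genes of the class II locus, H2-DMb2, which encodes a second H2-DM β chain, rose from 0.793 ± 0.116 to 4.02 ± 1.24 CPM (SD, n = 3) in cystic Pkd2+/+ kidneys (log2 fold change 2.32, SE 0.35, adjusted p = 6.35e-05). It was at 1 ± 0.143 CPM in noncystic and 1.45 ± 0.597 CPM in cystic Pkd2Δ17/Δ17 kidneys (0.53, SE 0.36, adjusted p = 0.335). The promoter letters shown for H2-DMb1 and H2-DMb2 both hold an X core and a Y box 29 bases apart, and per length H2-DMb1 was the more abundant in every group. Of the 50-base windows of H2-DMb2, 25.9% were shared with other genes, most of all with H2-DMb1, so its values are also less certain. H2-Eb2 had 19 reads in all 12 mice, and H2-Ea-ps, the nonfunctional E α gene, 1 read.

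The factors that bind class II promoters showed no common direction, with 2 of 7 higher and 1 lower in cystic against noncystic Pkd2+/+ kidneys and a median log2 fold change of 0.04. Rfx5, a subunit of the RFX complex, rose (0.87, SE 0.15, adjusted p = 0.000244), while its partners Rfxap (-0.01, adjusted p = 0.948) and Rfxank (-0.26, adjusted p = 0.143) did not pass the test. Of the NF-Y subunits Nfya rose (0.57, SE 0.10, adjusted p = 0.000379) and Nfyc fell (-0.25, SE 0.09, adjusted p = 0.0390), with Nfyb at 0.04 (adjusted p = 0.806). Creb1 was at 0.13 (adjusted p = 0.272). In cystic against noncystic Pkd2Δ17/Δ17 kidneys 2 of 7 rose, Nfya (0.40, adjusted p = 0.00905) and Nfyb (0.38, adjusted p = 0.00694). Rfx5 was there at 14.9 ± 1.86 CPM, beside 15.8 ± 1.92 CPM in cystic Pkd2+/+ kidneys and 8.68 ± 1.17 and 12.7 ± 1.69 CPM in the noncystic groups (Pkd2+/+ first).

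Among genes that induce or restrain class II transcription, 7 of 10 tested were higher and 0 lower in cystic Pkd2+/+ kidneys (median 0.38), and 3 of 10 were higher in cystic Pkd2Δ17/Δ17 kidneys (median 0.18), each against its noncystic group. The first count ran from 3 to 9 over the alternatives and the second from 2 to 6. Spi1, the myeloid factor PU.1, rose in both (1.55, adjusted p = 9.29e-05, and 1.01, adjusted p = 0.00618). Irf1, a transcription factor of the interferon response, rose in both (0.77, adjusted p = 0.000145, and 0.47, adjusted p = 0.0114), as did the interferon-γ receptor chain Ifngr2 (0.51, adjusted p = 0.000376, and 0.51, adjusted p = 0.000622). Ifngr1 (0.39), Jak1 (0.27), Jak2 (0.36) and Tgfb1 (0.37) rose in cystic Pkd2+/+ kidneys, with adjusted p between 0.0109 and 0.0167. Irf8 (0.30, adjusted p = 0.105) and Il10 (-0.23, adjusted p = 0.872, 30 reads in all) did not pass the test there. The interferon-γ gene Ifng had 6 reads in all 12 mice, with 8 mice at 0, and was not tested.

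Among genes of invariant chain and antigen processing, 3 of 9 rose and 1 fell in cystic Pkd2+/+ kidneys, and 3 rose and 3 fell in cystic Pkd2Δ17/Δ17 kidneys. The 3 most abundant were the lysosomal proteases Ctsl, which fell in both (-0.59, adjusted p = 9.36e-05, and -0.42, adjusted p = 0.00242), Ctsb (-0.19, adjusted p = 0.0760, and -0.26, adjusted p = 0.0195) and Lgmn (-0.09, adjusted p = 0.589, and -0.39, adjusted p = 0.0113). In the class I presentation list 8 of 11 rose and 0 fell in cystic Pkd2+/+ kidneys (median 0.43), and 0 rose and 1 fell in cystic Pkd2Δ17/Δ17 kidneys (median 0.10). The class I heavy chains H2-D1 (0.43, SE 0.11, adjusted p = 0.00755) and H2-K1 (0.42, SE 0.10, adjusted p = 0.00433) rose in the first and not in the second (0.04, adjusted p = 0.875, and 0.03, adjusted p = 0.895). B2m, the light chain of class I molecules, was at 0.12 (adjusted p = 0.412) in the first and fell in the second (-0.33, adjusted p = 0.0271). In the fourth contrast, a description, 6 of the 11 class I presentation genes were past the threshold and lower (median -0.48). That count ran from 0 to 9 over the alternatives. Of 6 costimulatory ligands of T cells, 2 rose in the first comparison and 1 in the second. The most abundant, Icosl, rose in both (0.72, adjusted p = 3.98e-05, and 0.61, adjusted p = 0.000345), while Cd40 (-0.19, adjusted p = 0.502, and 0.49, adjusted p = 0.0832) and Cd274 (-0.28, adjusted p = 0.472, and -0.53, adjusted p = 0.170) did not pass the test in either.

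Markers of cells that can carry class II molecules were measured in the same libraries. Of 16 macrophage markers 15 were higher and 1 lower in cystic Pkd2+/+ kidneys (median 1.79), and 15 were higher and 1 lower in cystic Pkd2Δ17/Δ17 kidneys (median 1.15), each against its noncystic group. Their summed level was 282 to 301 and 265 to 324 CPM in the noncystic groups, 587 to 807 CPM in cystic Pkd2+/+ and 432 to 581 CPM in cystic Pkd2Δ17/Δ17 kidneys. The receptor Csf1r rose in both comparisons (0.74, adjusted p = 1.54e-06, and 0.53, adjusted p = 7.77e-05), as did lysozyme, Lyz2 (1.53, adjusted p = 4.10e-06, and 1.08, adjusted p = 0.000225). Mertk, a phagocytic receptor, fell in both (-0.97, adjusted p = 9.59e-07, and -0.66, adjusted p = 7.43e-05). So macrophage markers were raised in the cystic Pkd2Δ17/Δ17 kidneys in which 0 of 9 class II genes were, a difference between the lists that was not tested. All 8 pan-leukocyte genes rose in cystic Pkd2+/+ kidneys (median 1.43) and 3 of 8 in cystic Pkd2Δ17/Δ17 kidneys (median 0.41). Laptm5 rose in both (1.45, adjusted p = 3.83e-07, and 0.82, adjusted p = 0.000203), whereas Coro1a (1.53, adjusted p = 3.61e-06, and 0.44, adjusted p = 0.0853) and Ptprc, the common leukocyte antigen (0.96, adjusted p = 6.40e-05, and 0.36, adjusted p = 0.0898), passed the test in the first alone, and these differences between the comparisons were not tested. The fourth contrast is a description here too. In it 7 of 16 macrophage markers were past the threshold and lower, and 1 was higher (median -0.59). Of the 8 pan-leukocyte genes 3 were lower and 0 higher (median -0.71), beside 1.04% of all genes lower. These lower counts ran from 0 to 11 and from 2 to 7 over the alternatives. Lower levels there were thus not confined to the class II genes. The part of leukocytes in the class II values was not tested.

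Of 11 dendritic cell markers 2 were higher and 1 lower in cystic Pkd2+/+ kidneys (median 0.46), and 0 were called in cystic Pkd2Δ17/Δ17 kidneys (median -0.22; edgeR, 0 to 1 higher over the alternatives). Their summed level was 32.4 to 37.5, 27.6 to 35.8, 35.9 to 38.8 and 26.8 to 33.6 CPM in noncystic Pkd2+/+, noncystic Pkd2Δ17/Δ17, cystic Pkd2+/+ and cystic Pkd2Δ17/Δ17 kidneys. The 3 most abundant were Zbtb46, which fell (-0.53, adjusted p = 0.00323), Batf3 (0.46, adjusted p = 0.119) and Clec10a, which rose (0.99, adjusted p = 0.0191). Zbtb46 was the largest part of the sum, at a mean of 21.4, 20.4, 14.8 and 17.5 CPM in the same order. The other marker that rose was Itgax (2.14, adjusted p = 6.03e-05), at 1.23, 1.31, 5.46 and 2.24 CPM. In the fourth contrast, a description, 2 of 11 were past the threshold and lower, Itgax (-1.28) and Cd209a (-1.97). That count ran from 0 to 3 over the alternatives. B and T cell markers were low. Of 10 B cell genes, with a sum of 12.6 to 21.7 CPM, 1 rose and 1 fell in cystic Pkd2+/+ kidneys, with Ighm at 1.09 (adjusted p = 0.000432), Cd79b at 0.43 (adjusted p = 0.175) and Cr2 at -1.45 (adjusted p = 0.00127). Of 10 T cell genes, with a sum of 9 to 13.3 CPM, 3 rose and 1 fell. They included Lck (0.73, adjusted p = 0.0119), Cd4 (0.74, adjusted p = 0.0352) and Cd8a, which fell (-3.11, adjusted p = 2.12e-06). The other that rose was Cd3g (2.24, adjusted p = 0.00402), and Cd8b1 did not pass the test (0.19, adjusted p = 0.911). Cd3g had 85 reads in all and Cd8b1 had 52. Of 10 kidney epithelium markers 7 fell and 1 rose in cystic Pkd2+/+ kidneys, and 6 fell and 1 rose in cystic Pkd2Δ17/Δ17 kidneys, with Slc34a1 of the proximal tubule at -1.33 (adjusted p = 1.11e-05) and -1.18 (adjusted p = 7.03e-05). Slc12a1 of the thick ascending limb was at -0.97 (adjusted p = 2.31e-06) and -0.18 (adjusted p = 0.238), and Umod of the same segment at -0.10 (adjusted p = 0.689) and 0.29 (adjusted p = 0.236).

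Within each mouse, the mean log2CPM of the 7 class II genes that averaged 1 or more was set against that of 15 macrophage markers above the same level. The difference was 0.88 ± 0.06 (SD, n = 3) in noncystic Pkd2+/+ and 0.91 ± 0.14 in noncystic Pkd2Δ17/Δ17 kidneys, 0.42 ± 0.08 in cystic Pkd2+/+ kidneys and -0.20 ± 0.14 in cystic Pkd2Δ17/Δ17 kidneys. The noncystic groups overlapped, and the cystic groups lay below them and apart from each other, at 0.33 to 0.49 and at -0.36 to -0.10. Against 5 dendritic cell markers the difference was 2.45 ± 0.09, 2.61 ± 0.10, 2.94 ± 0.11 and 2.35 ± 0.26 in the same order, and against 11 class I presentation genes -0.81 ± 0.13, -0.72 ± 0.03, -0.30 ± 0.23 and -0.94 ± 0.27. The cystic Pkd2+/+ mice had the highest mean against these 2 lists. Against 8 pan-leukocyte genes the difference was 1.69 ± 0.15, 1.69 ± 0.10, 1.39 ± 0.08 and 1.03 ± 0.10, and there the cystic Pkd2+/+ mice lay below both noncystic groups. These are descriptions, since the members were chosen with the difference of the cystic groups known.

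**Figure D3:**
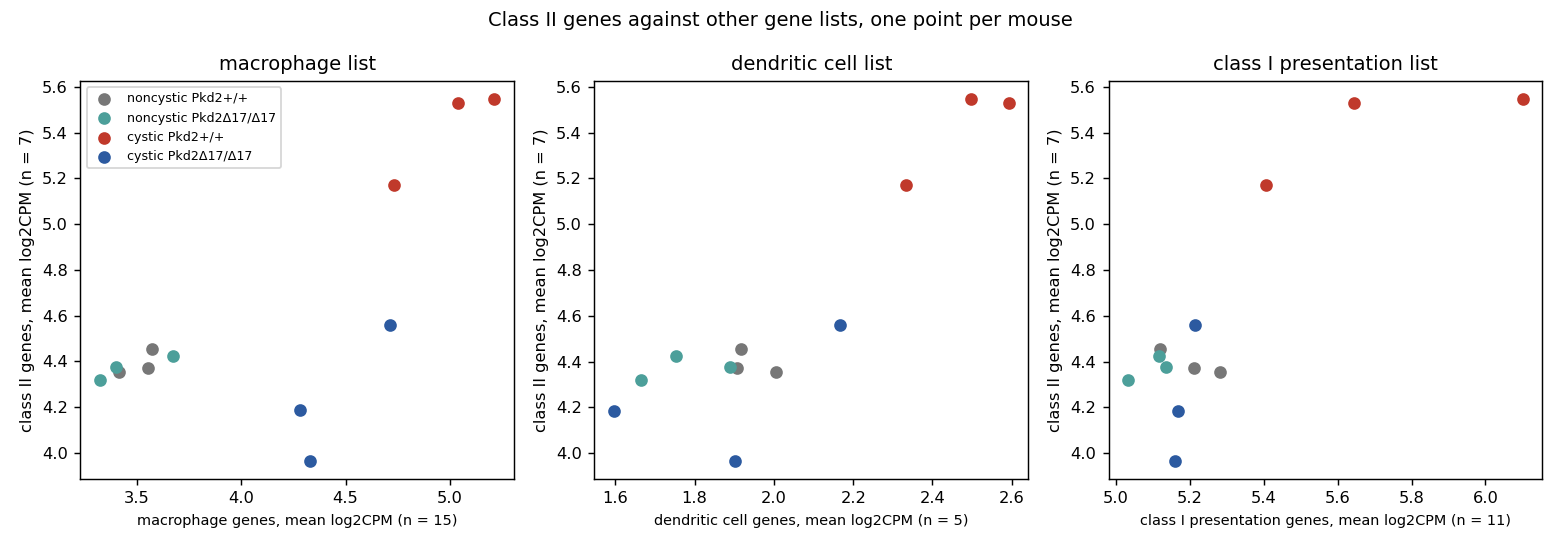
Mean log2CPM of 7 MHC class II genes (y axis) against the mean log2CPM of 15 macrophage, 5 dendritic cell and 11 class I presentation genes (x axes), one point per mouse, 3 mice per group. In the macrophage panel the cystic Pkd2Δ17/Δ17 mice lie to the right of the noncystic mice. The class II levels of mice 28 and 29 lie below those of the noncystic mice, and that of mouse 30 lies slightly above them.

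**Figure D4:**
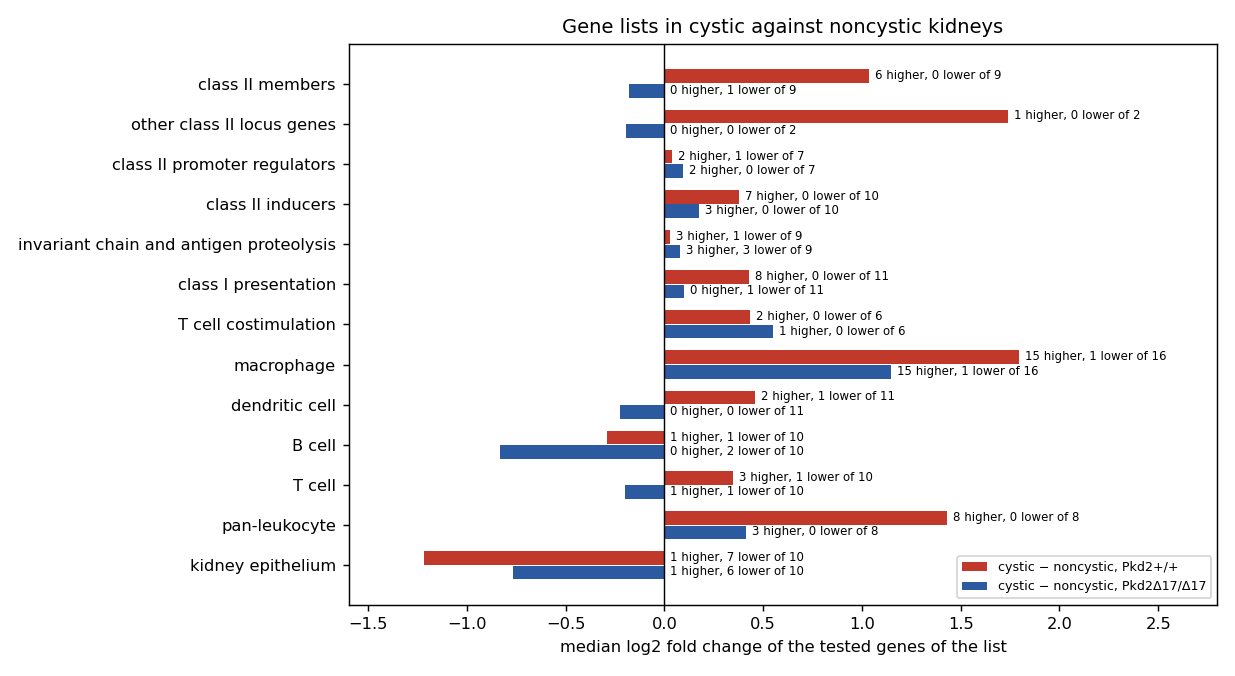
Median log2 fold change over the tested genes of each list (bars) in cystic against noncystic kidneys, with Pkd2+/+ in red and Pkd2Δ17/Δ17 in blue; text gives the genes called at an adjusted p under 0.05. The class II bars are 1.04 and -0.18, the macrophage bars 1.79 and 1.15.

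The genes whose pattern was most like that of the members were ranked by Pearson's r between their log2CPM and the mean standardised log2CPM of the 9 members over the 12 mice, among 13684 genes whose mean log2CPM was 1 or more. Each member had the same weight in that mean, also the sparsely counted H2-Oa and H2-Ob. A high r does not mean a change of the same size, as for Ncln, with a log2 fold change of 0.13 in the first comparison. The 10 highest were Steap1 (r = 0.92), Nfkbil1 (0.92), Myo1g (0.91), Ifi35 (0.91), Xaf1 (0.90), Ncln (0.90), Spsb1 (0.88), Trim12a (0.88), Prr15 (0.86) and Tmem176a (0.86). These r describe points that share libraries and group differences, and with library totals 6 of the 10 were again among the 10 highest. Myo1g, a myosin of haematopoietic cells, was at 2.59 to 3.48 CPM in noncystic Pkd2+/+, 1.80 to 3.27 CPM in noncystic Pkd2Δ17/Δ17, 5.50 to 6.36 CPM in cystic Pkd2+/+ and 1.92 to 3.27 CPM in cystic Pkd2Δ17/Δ17 kidneys. Tmem176a was the most abundant, at 297 to 327 CPM in the noncystic mice, 376 to 445 CPM in cystic Pkd2+/+ and 277 to 335 CPM in cystic Pkd2Δ17/Δ17 kidneys. Ifi35, an interferon-induced gene, was at 19.2 to 21.8 CPM in noncystic Pkd2+/+ and 21.4 to 28.1 CPM in cystic Pkd2+/+ kidneys, which overlapped.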

How the data were processed

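Whole-kidney RNA of 12 mice was sequenced. According to the submitters' processing notes and the study's methods, the authors trimmed reads with Trim Galore 0.6.3, aligned them to GRCm38 with STAR 2.5.3a, and the deposited values are raw counts of each gene, in whole numbers (STAR's gene counts on an Ensembl annotation), without normalization. The strand setting is not given in the sources used here. All per-sample columns were mapped to mice by the labels (0 left unmapped), and the table holds no columns of the authors' comparisons.

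The analysis used R 4.3.3 and edgeR 4.0.16. A mean log2CPM of -3 or more was required, which left 24642 of 54532 genes. All 12 mice entered 1 quasi-likelihood fit of edgeR, scaled by TMM, in which each group had its own mean and 8 degrees of freedom remained. P-values were adjusted by Benjamini-Hochberg across the whole table, at a threshold of 0.05. The study's own method, limma-trend, was an alternative (limma 3.58.1), as were DESeq2 1.42.0, library totals, DESeq2's size factors, no cutoff, filterByExpr, Xist as a covariate and leaving out each mouse. CPM values use TMM factors. The prior count was 2 for log2CPM in edgeR and 3 in limma. The standard error is the log2 fold change divided by the square root of its F statistic. Mice are the replicates, named by the numbers in their labels. Whether mice shared litters is not given. Libraries of a group differed beyond sampling noise (chi-square per degree of freedom of 8.99 to 24.7), so no library was a copy of another.

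The members and gene lists were chosen with earlier results of these data known, and the motif letters and their spacing after these promoters were read. Named genes were all 9 members, every gene of the lists of other class II locus genes, promoter regulators and inducers, the 3 most abundant of each other list and the 10 with the most similar pattern. Of these, 1 gene of the inducer list is not reported here. Exon lengths and shared 50-base windows came from GENCODE M21 (54409 of 54532 identifiers matched). The tests were tested on simulated data with changed genes.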

Additional observations from a re-analysis of the deposited data

How the results depend on the processing

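The count of members called was 6 in cystic against noncystic Pkd2+/+ kidneys and 0 for the deletion in noncystic kidneys under all 13 alternatives run for each. In cystic against noncystic Pkd2Δ17/Δ17 kidneys it was 0 in place of 1 under limma-trend and with library totals, and 0 to 1 when each mouse was left out. For the deletion in cystic kidneys 7 members were past the threshold, and 5 to 7 when each mouse was left out. Library totals moved the median log2 fold change of all genes in the first comparison to 0.18 (0.14 in limma-trend), and changes on that scale are relative to it. Of 348 alternative values of single members in the tested comparisons, 314 kept direction and side of the threshold, 4 lost a call and 1 gained one (H2-DMb1 and H2-Ab1 with Pkd2Δ17/Δ17), and 29 had the opposite sign, 0 of them of a called value; the cause was not tested. With Pkd2+/+, H2-Ob was at -0.046 with the Xist covariate and -0.033 to 0.39 with mice left out. For the deletion in noncystic kidneys, under limma-trend, library totals, filterByExpr and the Xist covariate, H2-Ab1 was at 0.013, 0.01, 0.001 and 0.029 and Cd74 at 0.007, 0.011, 0.003 and 0.037. With mice left out H2-Ab1 ran from -0.06 to 0.062, Cd74 from -0.088 to 0.092, H2-Eb1 from -0.165 to 0.011 and H2-DMb1 from -0.185 to 0.04. With Pkd2Δ17/Δ17, under limma-trend and library totals, H2-Aa was at 0.085 and 0.123 and H2-Eb1 at 0.01 and 0.043. With mice left out H2-Aa ran from -0.311 to 0.129, H2-Eb1 from -0.365 to 0.023, H2-DMa from -0.011 to 0.086, Cd74 from -0.216 to 0.233 and Ciita from -0.505 to 0.019. Of all genes, 549 passed the threshold for the deletion in cystic kidneys, 1128 with DESeq2, 1639 with no cutoff and 118 to 861 with mice left out, and 1 in noncystic kidneys, 3 with DESeq2 and 124 with no cutoff. H2-Oa was removed by filterByExpr and has no value there. Of the counts of genes called in the other lists, 1157 stayed within 1.5 times of the reported count and 91 did not, and the macrophage count ran from 14 to 15 with Pkd2+/+ and from 13 to 15 with Pkd2Δ17/Δ17. No paired analysis was possible because the groups share no replicate number. Depth limits H2-Oa and H2-Ob, at 1 to 36 reads per mouse.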
